A study of Mus musculus with 8 samples.

Results

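The 47 cell cycle regulator genes examined here are cyclins, cyclin-dependent kinases (CDKs), CDK inhibitors, E2F factors, pocket proteins, mitotic kinases, spindle checkpoint genes, CDC25 phosphatases, replication licensing factors, Myc and Mycn. Their peaks were found by exact gene symbol among the genes that the deposited ATAC-seq table assigns to each peak. The assignment reaches 10 kb beyond a gene, so a peak can belong to several genes. The rule gave 886 of 328733 peaks, which merged into 171 of 87144 regions, and 46 of the 47 genes had at least 1 peak. Aurka, which encodes a mitotic kinase, had none under its symbol.

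ATAC-seq measures accessible chromatin by the insertion of sequencing adapters into open DNA. Libraries came from germ cells sorted from testes of mice that carry PIWIL2-eGFP, a transgene whose Piwil2 promoter is active in germ cells from before birth through early spermatids, so it does not separate one spermatogonial type from another. The labels give the background as C57BL/6 x 129s4/SvJae. All mice, those of 0 h included, received WIN 18,446, an inhibitor of retinoic acid (RA) synthesis, for 7 days. Mice of the 0 h group were then collected, and the others were given RA at 9 dpp and collected 18, 48 or 120 h later. These times stand for undifferentiated type A, A1/A2, A3 and type B spermatogonia. Each timepoint had 2 libraries, each from 1 mouse. RA, the injection and the age of the mice differ together between 0 h and the later groups and cannot be told apart.

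The somatic cell cycle is driven by cyclins that bind and activate CDKs in turn. D-type cyclins with Cdk4 or Cdk6 phosphorylate the pocket proteins, which releases E2F factors. These switch on genes for DNA replication. E- and A-type cyclins with Cdk2 drive S phase, and B-type cyclins with Cdk1 drive mitosis. Spermatogonia pass through a fixed series of mitotic divisions between type A1 and type B, with meiosis to follow.

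E2F factors bind short GC-rich words in promoters, and many mitotic genes carry instead a word known as the cell cycle genes homology region (CHR). Both kinds of word are shown here in 7 start regions, because the size of the change at 120 h, described further on, differed with the first of them. The starts of Cdc25a, Cdk2, Cdc6 and E2f7 rose, and those of Cdk1, Ccnb2 and Cdc20 did not pass the test. A start region is a region with a peak in all 8 libraries within 1000 bp of the deposited gene start. The bases come from the RefSeq GRCm38.p6 genome and are written 5′ to 3′ in the direction of the gene. They lie within 150 bases of the summit and outside the exons of GENCODE vM21 and of curated RefSeq transcripts, though exons of predicted RefSeq transcripts reach into those of Cdc25a, Cdk2 and Cdc6. In the first 5, capitals mark an E2F word on either strand. The words searched were TTGGCGC along with TTCGCGC, the form TTCCCGC and the form TTGCCGC.
Cdc25a, chr9:109875429-109875578 (+): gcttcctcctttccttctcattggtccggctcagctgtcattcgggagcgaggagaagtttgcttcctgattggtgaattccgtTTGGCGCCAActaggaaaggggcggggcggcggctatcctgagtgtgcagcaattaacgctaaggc
Cdk2, chr10:128705052-128705179 (-): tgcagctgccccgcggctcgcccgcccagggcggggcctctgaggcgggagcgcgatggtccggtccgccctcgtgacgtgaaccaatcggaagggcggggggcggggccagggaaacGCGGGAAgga
Cdc6, chr11:98907579-98907728 (+): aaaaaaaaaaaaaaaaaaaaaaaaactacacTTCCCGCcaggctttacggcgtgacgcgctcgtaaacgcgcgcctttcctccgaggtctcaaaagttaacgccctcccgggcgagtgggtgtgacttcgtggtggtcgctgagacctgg
E2f7, chr10:110745275-110745424 (+): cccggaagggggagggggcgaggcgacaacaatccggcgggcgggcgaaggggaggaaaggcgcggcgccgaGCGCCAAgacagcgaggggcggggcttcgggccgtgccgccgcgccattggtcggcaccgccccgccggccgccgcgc
Cdk1, chr10:69352988-69353137 (-): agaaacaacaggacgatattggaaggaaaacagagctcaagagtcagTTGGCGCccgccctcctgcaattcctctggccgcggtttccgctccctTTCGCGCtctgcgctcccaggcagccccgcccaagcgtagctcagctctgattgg
In the other two, capitals mark a CHR word (TTTGAA or TTCGAA on either strand).
Ccnb2, chr9:70421585-70421734 (-): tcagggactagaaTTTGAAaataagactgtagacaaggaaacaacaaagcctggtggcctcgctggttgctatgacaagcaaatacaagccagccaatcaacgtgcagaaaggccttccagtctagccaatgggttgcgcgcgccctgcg
Cdc20, chr4:118437353-118437502 (-): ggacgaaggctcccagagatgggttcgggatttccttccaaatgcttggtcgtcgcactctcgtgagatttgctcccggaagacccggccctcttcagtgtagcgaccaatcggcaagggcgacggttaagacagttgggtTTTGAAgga

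Libraries differed in ways that touch every gene. The 0 h libraries held 72215 and 69089 peaks, against 24643 to 39551 in the 6 later libraries, and the 120 h pair stood apart from each other with 39551 in replicate 1 and 24643 in replicate 2. The height of a peak is its summit value, the tag coverage at its highest point after the authors reduced all libraries to the same number of tags. For the 15536 regions found in every library, the median summit value was 224 and 270 (0 h), 91 and 116 (18 h), 86 and 102 (48 h), 166 and 106 (120 h). Heights were therefore compared after dividing by the median of the library, and each change below is relative to the median region unless it is called as deposited. The deposited heights of all regions moved by a median of -1.23, -1.36 and -0.75 (log2) from 0 h to 18, 48 and 120 h. All 6 germ cell markers checked had a peak at their start in all 8 libraries. Of 15 markers of Sertoli, Leydig, peritubular, blood and vessel cells, 7 had one in each 0 h library and 3 to 5 in each later library. Wt1 and Acta2 had one in all 8, and 8 markers in none, among them all 4 of Leydig cells. Their part in the results was not tested. In bulk libraries, fewer cells with an open region and less signal per cell cannot be told apart.

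Most cell cycle genes were accessible throughout. A peak in both libraries of all 4 timepoints was found for 40 of the 47 (85.1%), against 72.8% of the 20673 genes with a peak in both libraries of any timepoint. Ccnb3, a B-type cyclin, and Cdkn2d, which encodes the inhibitor p19, were counted at 0 h only, which is 4.26% of the 47 against 12.9% of all genes. Myc was counted at 0 and 18 h, Mycn at 0 and 120 h, and Ccna1, an A-type cyclin of the germ line, at 0, 18 and 120 h. Aurkc, a kinase of germ cells, was counted at every time except 120 h. With every library cut to its 24643 highest peaks, 37 genes were counted at all timepoints and none at 0 h only, against 79.5% and 2.15% of the 17196 genes then counted at any timepoint, and 4 of the 47 were counted at none.

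**Figure D1:**
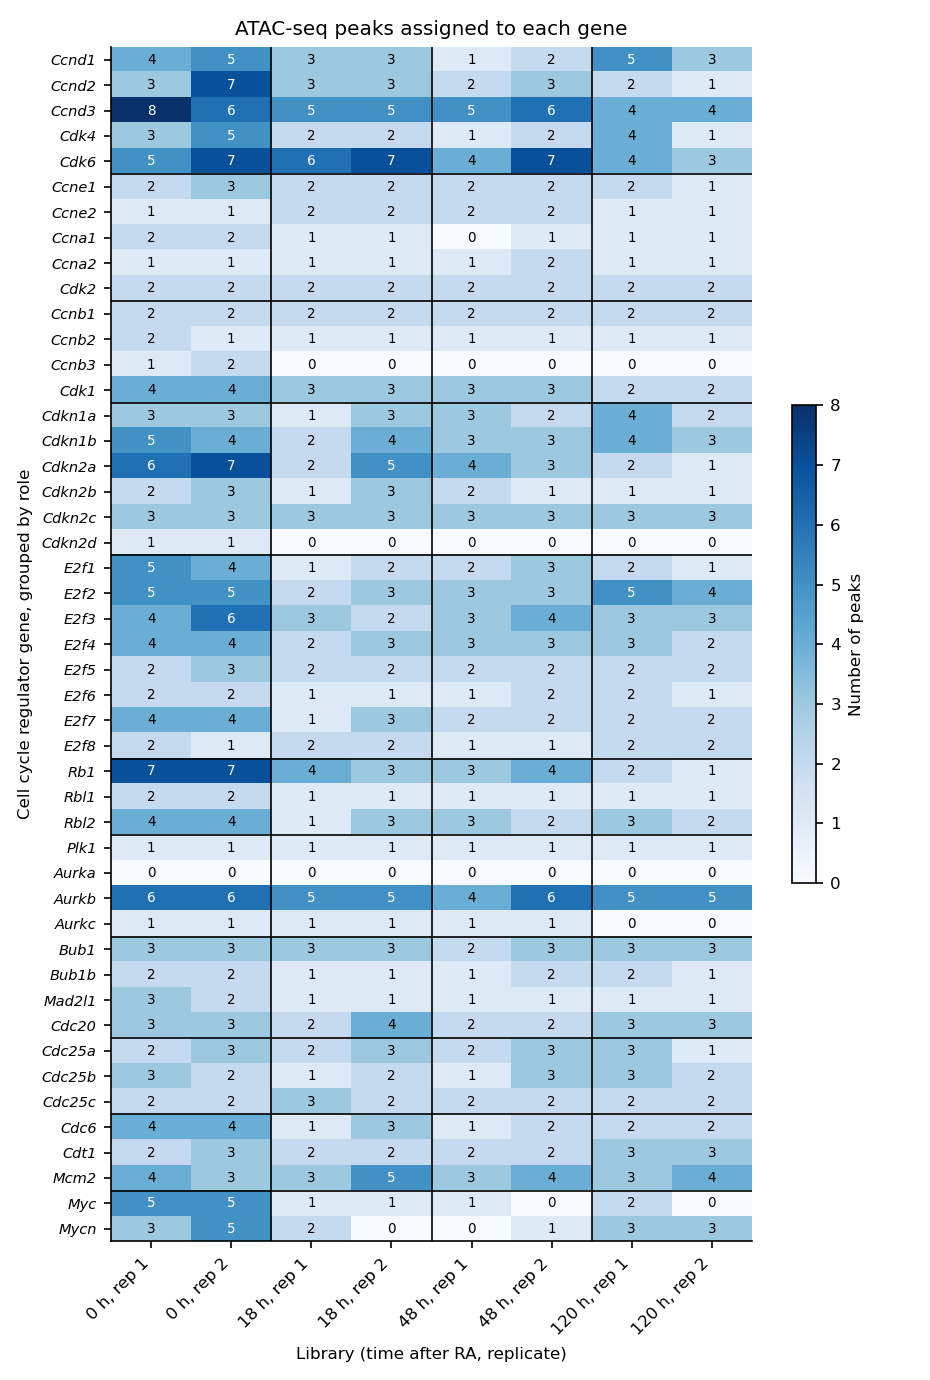
Number of ATAC-seq peaks assigned to each of the 47 cell cycle regulator genes (rows, grouped by role) in each of the 8 libraries (columns, time after RA and replicate), with the count printed in each cell. Most genes kept peaks in all libraries, and the counts were highest in the 0 h pair (a mean of 3.20 ± 0.165 peaks per gene, SD, against 2.05 to 2.15 at the later times).

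Most genes had more peaks at 0 h than later. The mean number of peaks per gene was 3.20 ± 0.165 (0 h), 2.15 ± 0.301 (18 h), 2.09 ± 0.271 (48 h) and 2.05 ± 0.346 (120 h) (SD, n = 2 libraries each). For all genes it was 3.26 ± 0.0257, 1.75 ± 0.204, 1.72 ± 0.254 and 1.84 ± 0.468. From 0 h, 32 genes had fewer peaks at 18 h, 36 at 48 h and 32 at 120 h (68.1%, 76.6% and 68.1% of the 47). Of the 15054 genes counted at all timepoints, 71.5%, 71.4% and 69.6% had fewer, beside 67.5%, 77.5% and 65.0% of the 40 members counted at all of them. Rb1, the retinoblastoma pocket protein, went from 7 and 7 peaks at 0 h to 2 and 1 at 120 h, and Myc from 5 and 5 to 2 and 0. Among the D-type cyclins, Ccnd3 went from 8 and 6 peaks to 4 and 4. Cdk2 held 2 peaks in every library, as did Ccnb1, the main mitotic cyclin. With equal numbers of peaks (24643), the mean per gene was 1.96 at 0 h and 1.91 later.

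Regions at gene starts were found at all timepoints in a larger share than regions elsewhere. Of 52 member regions within 1000 bp of a member start, 31 (59.6%) had a peak in both libraries of all timepoints and 3.85% at 0 h only, against 54.1% and 18.4% of the 16587 regions at any gene start. CpG islands lay in 88.5% of the former and 70.6% of the latter. Of the 119 member regions not at a member start, 26.1% were found at all timepoints and 31.1% at 0 h only. Of all regions with a gene but at no gene start, the shares were 10.4% and 36.3%. CpG islands lay in 31.1% of the 119 and in 7.85% of the latter. The sets are unlike, because the 119 include starts of other genes and the latter leave out every gene start. A peak in both libraries of 120 h only was found in 1 member start region and 3 others, against 0.754% of all start regions, 2.40% of those elsewhere and 1.75% of all regions.

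The heights of 62 member regions, which belong to 40 genes, could be compared in all 8 libraries, and 31 of them were start regions. Of the 62, 38 are assigned to another gene too, start regions included (16 of 31). Member start regions were high: their median summit value was 356 and 419 at 0 h, against 255 and 327 for all 8971 start regions, and 340 and 240 at 120 h, against 221 and 160. E2f3, an activating E2F factor, had the highest start region in all 8 libraries (1151 and 1173 before RA, 462 and 663 after 18 h, 410 and 466 after 48 h, 1080 and 793 after 120 h). At the low end stood the pocket proteins: Rb1 (162 and 219 before RA, 108 and 75 at 120 h), Rbl2 (181 and 222, then 125 and 95) and Rbl1 (93 and 119, then 124 and 148) were among the lowest 8 of 31 in every library.

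At 120 h against 0 h, the member regions rose more often than they fell. Relative to the library median, 21 of 62 were higher and 2 lower (limma, adjusted p under 0.05), with a median change of 0.40 (log2), and the background over all 15536 regions was 23.0% higher and 15.8% lower with a median of 0.14. All calls at start regions were higher: 14 of 31, median 0.55, against 29.6% higher and 8.42% lower of all start regions with a median of 0.32. Away from the starts 7 of 31 were higher and 2 lower, against 13.8% and 25.8% of all regions not at a gene start, whose median was -0.18. Of those 7, 5 lie at the start of another gene, as do 15 of the 31. This background leaves out the starts of every gene, so the sets are unlike. The split depended on the scale. When centred on start regions it was 12 higher and 4 lower. It was 16 and 5 with the trend on GC content removed, and 12 and 3 after quantile normalization. These counts are not to be set against 23.0%, because the background moved with the scale too. Of all start regions without an E2F word, 27.6% were higher relative to the library median, and 9.58%, 17.3% and 7.53% on these scales. With a word the shares were 37.5%, and 15.4%, 24.3% and 10.8%. The shares lower were 9.18%, and 15.6%, 14.7% and 6.42% without a word, and 5.52%, and 9.71%, 9.97% and 3.75% with one. Shares of all 15536 regions on these scales are not given. As deposited the split was 0 and 15, where 0.882% of all regions were higher and 44.8% lower. Quantile normalization ended the calls at the starts of Cdk4, E2f3, Ccnb1, Ccne1, Cdt1 and Cdc25a and at the regions near Aurkb and Rbl2 and upstream of Ccnd3. Centring on start regions ended these calls other than that of Cdc25a, along with that of Bub1, and removal of the GC trend those of Cdk4, Ccne1, Aurkb, Rbl2 and Cdc25b. Of the 21, 11 were also above 0 as deposited and 10 below. Without 120 h replicate 2 the median change of member start regions was 0.80 with an E2F word and 0.28 without. For all start regions it was 0.32 and 0.18. The 3 comparisons with 0 h share its libraries.

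**Figure D2:**
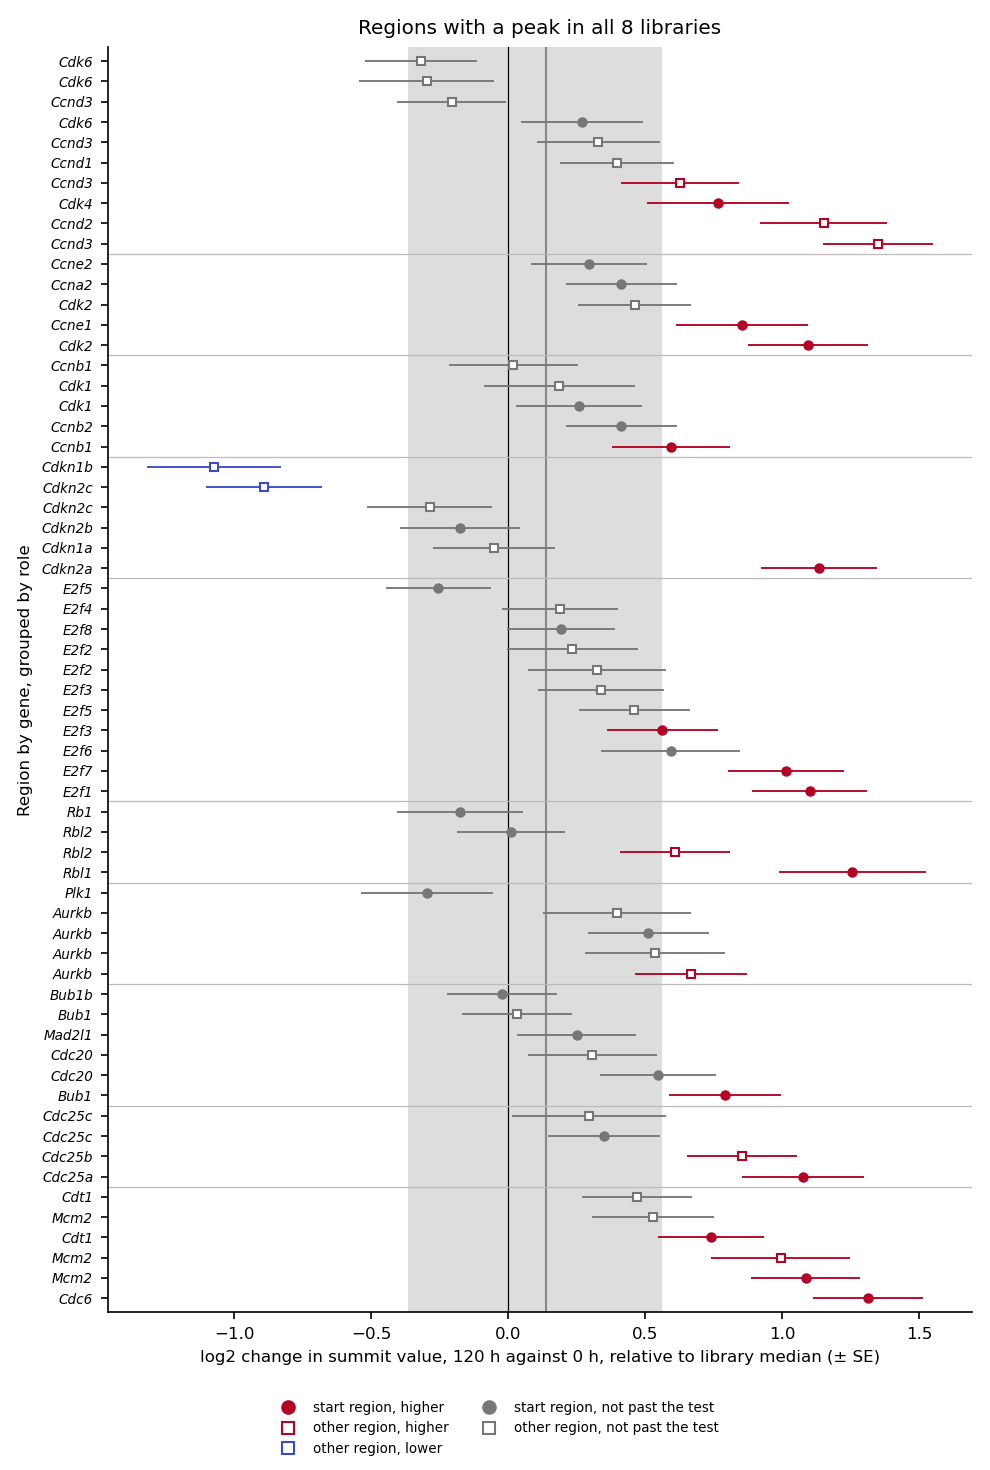
Change in summit value at 120 h against 0 h, relative to the library median (x axis, log2, bars ± SE of the limma fit), for the 62 regions found in every library (y axis, by gene and role). Circles are start regions and open squares other regions, red and blue mark regions past the threshold, and the grey band and line are the quartiles and median (0.14) of all 15536 regions. The 21 higher regions are spread over all 10 roles with a tested region and the 2 lower ones belong to CDK inhibitors, and as deposited 10 of the 21 lie below 0.

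Replication licensing genes load the MCM helicase onto origins before S phase. At 120 h 4 of their 6 regions were higher, with a median of 0.87 (log2). Beside them, 23.0% of all regions were higher (median 0.14) and 29.6% of all start regions (median 0.32). At the start of Cdc6, which recruits the helicase, summit values were 359 and 390 (0 h), 185 and 257 (18 h), 174 and 249 (48 h), 628 and 400 (120 h). Both 120 h libraries lay above both 0 h libraries, in deposited values and relative to the median. The rise relative to the median was 1.31 ± 0.20 (log2 ± SE, adjusted p = 0.00062). The start of Mcm2, a helicase subunit, gave 356 and 451, 182 and 199, 220 and 260, and 535 and 393 in the same order, a rise of 1.09 ± 0.20 (adjusted p = 0.00169). Deposited values of the pairs at 0 and 120 h overlap there, and the pairs are apart relative to the median. A second Mcm2 region, 23612 bp from its start, at the start of Podxl2, rose by 0.99 ± 0.25 (137 and 178 before RA, 55 and 116 after 18 h, 78 and 97 after 48 h, 178 and 158 after 120 h; adjusted p = 0.00916), and its adjusted p was 0.0894 without 120 h replicate 2. Cdt1, the partner of Cdc6, had start values of 244 and 313, 138 and 153, 141 and 159, and 316 and 196. It was higher by 0.74 ± 0.19 relative to the median, with -0.15 as deposited (adjusted p = 0.0107, and 0.0598 without 0 h replicate 1).

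Among the E2F factors, 3 of 11 regions were higher and none lower, where all regions gave 23.0% and 15.8%. The start of E2f1, an activator of S phase genes, held 376 and 483 (0 h), 153 and 263 (18 h), 160 and 197 (48 h), 580 and 418 (120 h), a rise of 1.10 ± 0.21 (adjusted p = 0.00219). E2f7, a repressor of E2F targets, gave 195 and 186, 92 and 116, 102 and 99, and 240 and 179 at its start (1.01 ± 0.21, adjusted p = 0.00357). In both genes the 120 h pair lay above all the other libraries relative to the median. The start of E2f3 was higher by 0.56 ± 0.20 (adjusted p = 0.0408), but the direction turned as deposited (-0.33) and with quantile normalization (-0.03), and the adjusted p was 0.0527 to 0.203 without any one of the libraries other than 120 h replicate 1. Starts of the other factors did not pass the test, at 0.59 ± 0.25 for E2f6, 0.19 ± 0.20 for E2f8 and -0.25 ± 0.19 for E2f5. The last of these is a repressor with Rbl1 and Rbl2 as partners.

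Pocket proteins hold E2F factors inactive, and of their 3 start regions only that of Rbl1 passed the test. Of all start regions 29.6% were higher and 8.42% lower at 120 h. No test compared the 3 pocket protein starts with each other. Rbl1, which encodes p107, had the lowest start region of all 31 in both 0 h libraries (93 and 119 before RA, 74 and 97 after 18 h, 89 and 81 after 48 h, 124 and 148 after 120 h). Relative to the median all 6 later libraries lay above both 0 h libraries. The rise was 0.95 ± 0.27 at 18 h (adjusted p = 0.115), 1.08 ± 0.27 at 48 h (adjusted p = 0.0348) and 1.26 ± 0.27 at 120 h (adjusted p = 0.00388). As deposited the 48 h value was -0.31, and the 48 h call was lost without any one library of 0, 18 or 48 h (adjusted p from 0.0514 to 0.275). The starts of Rb1 and Rbl2 changed by -0.17 ± 0.23 and 0.01 ± 0.20 at 120 h and did not pass. A region 64050 bp past the start of Rbl2, at the start of Aktip, was among the highest of all member regions (987 and 1051, 390 and 495, 348 and 346, 995 and 706). Its rise of 0.61 ± 0.20 (adjusted p = 0.0289) turned to -0.28 as deposited and had an adjusted p of 0.0615, 0.139 and 0.138 without 0 h replicate 1, 0 h replicate 2 and 120 h replicate 2.

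D-type cyclins are the first to respond to growth signals, and Ccnd2 and Ccnd3 showed several regions that moved apart. In an intron of Ccnd3 (mm10, chr17:47511051-47511611), 6149 bp from its start, a region of low height at 0 h lay above both 0 h libraries in every later one relative to the median (80 and 105 before RA, 66 and 70 after 18 h, 59 and 70 after 48 h, 148 and 107 after 120 h). The changes were 0.83 ± 0.20 at 18 h (adjusted p = 0.0611), 0.88 ± 0.20 at 48 h (adjusted p = 0.024) and 1.35 ± 0.20 at 120 h (adjusted p = 0.000534), the smallest adjusted p of any member region. An intergenic region 32872 bp past the start of Ccnd2, chr6:127117411-127118336 (133 and 114, 77 and 81, 79 and 112, 205 and 106) rose by 1.00 ± 0.23 at 48 h (adjusted p = 0.0257) and 1.15 ± 0.23 at 120 h (adjusted p = 0.00286). Both rises at 48 h turned as deposited, to -0.51 for Ccnd3 and -0.39 for Ccnd2. The 48 h call of Ccnd3 was lost without any one of the 4 libraries of 0 and 48 h (adjusted p from 0.0662 to 0.142), and that of Ccnd2 without 0 h replicate 2 or either 48 h library (0.161, 0.0966 and 0.165). Cdk4, their kinase, gave 410 and 906 before RA, 645 and 483 at 120 h at its start (0.76 ± 0.26, adjusted p = 0.033), with -0.13 as deposited, and 0.365 and 0.166 as adjusted p without 0 h replicate 1 and 120 h replicate 2. A region upstream of Ccnd3 at the start of Taf8 was higher by 0.63 ± 0.22 (adjusted p = 0.0345) with -0.26 as deposited, and it lost the call without any library of 0 or 120 h (0.0506 to 0.181). No other tested region of Ccnd1, Ccnd3 or Cdk6 passed, and their changes ran from -0.32 to 0.40.

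The kinase of S phase, Cdk2, had start values of 243 and 380 (0 h), 123 and 209 (18 h), 144 and 174 (48 h), 413 and 296 (120 h). It was higher by 1.09 ± 0.22 at 120 h (adjusted p = 0.00289), with both 120 h libraries above all the others relative to the median. Ccne1, a cyclin that activates it, gave 273 and 515, 144 and 166, 175 and 164, and 420 and 317, a rise of 0.85 ± 0.24 (adjusted p = 0.015) that was -0.04 as deposited. The call was lost without 0 h replicate 1 (adjusted p = 0.157) or 120 h replicate 2 (0.0997). Starts of Ccne2 and Ccna2, at 0.29 ± 0.21 and 0.41 ± 0.20, did not pass. In the mitotic group of B-type cyclins and Cdk1, 1 of 5 regions passed, beside 23.0% higher and 15.8% lower of all regions. It was the start of Ccnb1 (277 and 391 before RA, 326 and 220 at 120 h, 0.59 ± 0.22, adjusted p = 0.0429). Its change was -0.30 as deposited, and the call was lost without any one library of 0, 48 or 120 h (adjusted p from 0.0541 to 0.204). Cdk1 itself, the mitotic kinase, held 517 and 496, 182 and 254, 213 and 169, and 412 and 259 at its start, a change of 0.26 ± 0.23 that did not pass, and Ccnb2 gave 0.41 ± 0.20.

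CDC25 phosphatases remove the inhibitory phosphates of CDKs. The start of Cdc25a, the family member of the G1/S transition, kept 540 and 503 (0 h), 284 and 302 (18 h), 239 and 270 (48 h), 648 and 541 (120 h). It was higher by 1.07 ± 0.22 (adjusted p = 0.00326, and 0.57 with an adjusted p of 0.0906 after quantile normalization), and both deposited 120 h values were above both 0 h values. A region at -6756 bp from the start of Cdc25b, at the start of Cenpb, was low in height (92 and 89, 46 and 62, 43 and 52, 105 and 74) and rose by 0.85 ± 0.20 relative to the median, with -0.04 as deposited (adjusted p = 0.00645, and 0.0514 without 0 h replicate 2). Cdc25c, which acts at mitosis, had a high start (761 and 865 before RA, 659 and 471 at 120 h) that did not pass at 0.35 ± 0.20.

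Of the regions of mitotic kinases 1 of 5 was higher, and of those of spindle checkpoint genes 1 of 6, beside the 23.0% of all regions. In the latter group, the start of the kinase gene Bub1 was higher (166 and 206, 53 and 87, 71 and 94, 208 and 143; 0.79 ± 0.21, adjusted p = 0.0100), with -0.10 as deposited and an adjusted p of 0.0598 without 120 h replicate 2. Starts of Bub1b, Mad2l1 and Cdc20 were at -0.02 ± 0.20, 0.25 ± 0.21 and 0.55 ± 0.21 and did not pass. Plk1, a kinase of mitotic entry, had the lowest change of all 31 start regions, -0.30 ± 0.24 (316 and 291 before RA, 71 and 123 after 18 h, 104 and 95 after 48 h, 148 and 120 after 120 h), and did not pass either. The start of Aurkb, the kinase of the chromosomal passenger complex, was at 0.51 ± 0.22. A region 13973 bp past it, at the start of Borcs6, was higher by 0.67 ± 0.21 (419 and 528, 156 and 210, 194 and 211, 441 and 368; adjusted p = 0.0217) and -0.22 as deposited. That call was lost without 0 h replicate 1, 0 h replicate 2 or 120 h replicate 2 (adjusted p = 0.0914, 0.0598 and 0.166).

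**Figure D3:**
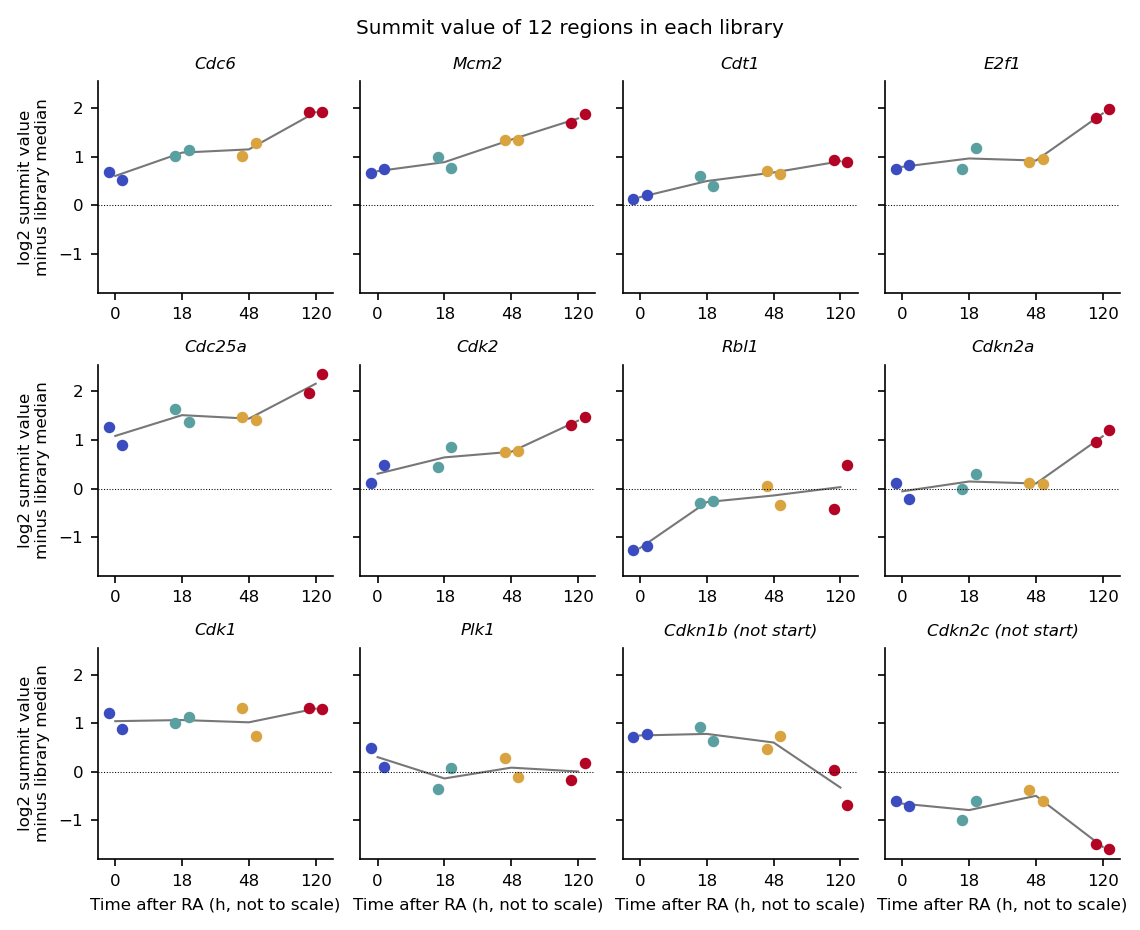
Summit value in each library as log2 difference from the library median (y axis) by time after RA (x axis, not to scale) for 12 regions chosen after their values were seen. Points are libraries, the line joins the means of each pair, and all are start regions except those of Cdkn1b and Cdkn2c, which fell relative to the median and as deposited. The 120 h points of Cdc6, Mcm2, E2f1, Cdc25a, Cdk2 and Cdkn2a lie above all the others, Cdk1 and Plk1 did not pass the test, and the rise of Cdt1 turns below 0 as deposited.

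CDK inhibitors held the 2 member regions that fell. A region at -4465 bp from the start of Cdkn1b, which encodes p27 (intergenic, chr6:134915592-134916358), kept its place to 48 h and then fell (370 and 461 before RA, 172 and 181 after 18 h, 119 and 170 after 48 h, 170 and 66 after 120 h). The change at 120 h was -1.07 ± 0.25 relative to the median and -1.96 as deposited (adjusted p = 0.00556 and 2.27e-06), and 0.0654 relative to the median without 120 h replicate 2. A region 7772 bp past the start of Cdkn2c, which encodes p18, fell at 120 h as well (147 and 166, 46 and 77, 66 and 67, 59 and 35), by -0.89 ± 0.21 (adjusted p = 0.00641), and lies in an exon at the start of 9630013D21Rik (chr4:109656925-109658010). It was -1.78 as deposited. The start of Cdkn2a moved the other way. This gene encodes p16 and p19Arf, and its start region gave 241 and 232, 91 and 142, 93 and 109, and 321 and 244, a rise of 1.13 ± 0.21 (adjusted p = 0.00196). The 6 earlier libraries stood at 0.859 to 1.22 times their median and the 120 h pair at 1.93 and 2.30. Another annotated start of Cdkn2a lies within 1000 bp of a region 12251 bp into the gene, which could not be tested. That region held 112 and 106, 40 and 50, 32 and 31, and 65 in 120 h replicate 1 alone. Peaks are assigned by gene symbol, which does not tell a p16 start from a p19Arf start. The rise is therefore not credited to either product. The start of the neighbour of Cdkn2a, Cdkn2b, which encodes p15, was at -0.18 ± 0.22 and did not pass.

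At 18 h against 0 h none of the 62 member regions passed relative to the median in either direction, and the background was 1.25% higher and 0.225% lower. At an unadjusted p under 0.05, 5 were higher and 3 lower, against 8.30% and 4.99% of all regions. At 48 h against 0 h, 3 were higher and none lower, those of Ccnd3, Ccnd2 and Rbl1 above, against 3.26% and 1.51%. Unadjusted, 12 were higher and 1 lower, against 11.1% and 8.11%. None of the start regions passed at 18 h (0.178% higher and 0.100% lower of all start regions) and that of Rbl1 was the only one at 48 h (1.13% and 0.524%). As deposited 59 and 57 member regions were lower and none higher, against 92.3% lower and 0.296% higher of all regions at 18 h and 93.3% and 0.328% at 48 h. The 48 h count fell to 1 when 0 h replicate 1 was left out, and to 0 when 0 h replicate 2 or either 48 h library was.

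At 120 h against 48 h, the last of the intervals, 9 member regions were higher and 2 lower, against 9.47% and 7.45% of all regions. Of the 31 start regions 5 were higher and none lower, against 13.1% and 4.12%. The starts were those of E2f1 (0.97 ± 0.21, adjusted p = 0.019), Cdkn2a (0.97 ± 0.21, adjusted p = 0.0192), Cdc6 (0.77 ± 0.20, adjusted p = 0.0283), Cdc25a (0.72 ± 0.22, adjusted p = 0.0431) and Ccna2 (0.64 ± 0.20, adjusted p = 0.0454). A region 32625 bp past the start of E2f5, at the start of 1810022K09Rik, held 677 and 892, 172 and 265, 223 and 235, and 693 and 480. It was higher by 0.83 ± 0.20 at 120 h against 48 h (adjusted p = 0.0235). Its changes from 0 h of -0.60 at 18 h and -0.37 at 48 h did not pass (adjusted p = 0.190 and 0.347). The other higher regions were those near Rbl2 (0.77), Aurkb (0.85, at -4523 bp from its start) and Cdk2 (0.65, at the start of Rab5b). That of Aurkb is not the region at the start of Borcs6, and it did not pass at 120 h against 0 h (0.40). The lower ones were those near Cdkn1b (-0.93 ± 0.25, adjusted p = 0.0289) and Cdkn2c (-1.05 ± 0.21, adjusted p = 0.0166). As deposited 28 were higher and none lower (23.7% and 0.180% of all regions). These counts rest on few libraries: they were 0 and 0 without 48 h replicate 1, 48 h replicate 2 or 120 h replicate 2, 6 and 3 without 120 h replicate 1, and 5 and 2 without either 18 h library. Centred on start regions they were 3 and 3, and after quantile normalization 0 and 0.

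Some regions had a peak in part of the libraries only. A peak in both 0 h libraries and in no later one was found in 17 member regions (9.94%, against 21.4% of all regions), and 4 had a peak in both 120 h libraries and in neither of 0 h (2.34% against 1.29%). Ranked by the lower library of the pair, highest of the former was a region at -1528 bp from the start of Ccnd2, with 239 and 254. Next came regions upstream of E2f4 (139 and 121) and downstream of E2f2 (120 and 157), then an intron of E2f3 (90 and 97). Mycn, E2f1, Myc, E2f7 and Cdkn2a held the rest of the 10 highest, with values from 57 to 99. Of the 4, the highest lay at -1519 bp from the start of E2f8, an E2F repressor, with 134 and 72 at 120 h. Mycn had a pair of them, at -596 bp (61 and 68) and at 10508 bp from its start (68 and 47, also 39 in an 18 h and 51 in a 48 h library), and an intron of E2f7 had 34 and 38 (also 41 in an 18 h library and 35 and 47 at 48 h).

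Where a library without a peak was given its lowest value, so that 137 member regions could be fitted, 18 were higher and 19 lower at 120 h against 0 h (6.05% and 15.4% of 61310 regions). The largest falls were at the deposited start of Ccnd3 (-3.13), in an intron of Rb1 (-2.60) and upstream of Ccnd2 (-2.44). The largest rise was upstream of E2f8 (2.86). These changes hold values set for the missing peaks. A region entered this fit where both libraries of any timepoint had a peak. The Ccnd2 and E2f8 regions thus entered only through the group where they were high. The values set hardly varied between libraries (24 or 25), so calls of such regions are no test, and the counts include them.

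The deposited start of Ccnd3 was among the clearest of these. It had 370 and 427 (0 h), 79 and 136 (18 h), 64 and 93 (48 h), and no peak in either 120 h library, while the region 6149 bp into the same gene rose. The lost region is assigned to Taf8 too. Another annotated start of Ccnd3 lies within 1000 bp of a region 88389 bp into the gene, which is assigned to Bysl too. That region held 306 and 500, 158 and 166, 134 and 173, and 296 and 237. Its change of 0.33 ± 0.22 at 120 h did not pass. At Rb1, a region in an intron 93983 bp from the start, chr14:73231338-73232024, was higher than the start itself at 0 h (404 and 385) and then held 55 and 76, 40 and 33, and 49 in 1 of the 120 h libraries. This intron region is assigned to Lpar6 too. Ccnd2 had an intron region of 299 and 164 (0 h), 80 and 91 (18 h), 59 and 61 (48 h), with none at 120 h.

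**Figure D4:**
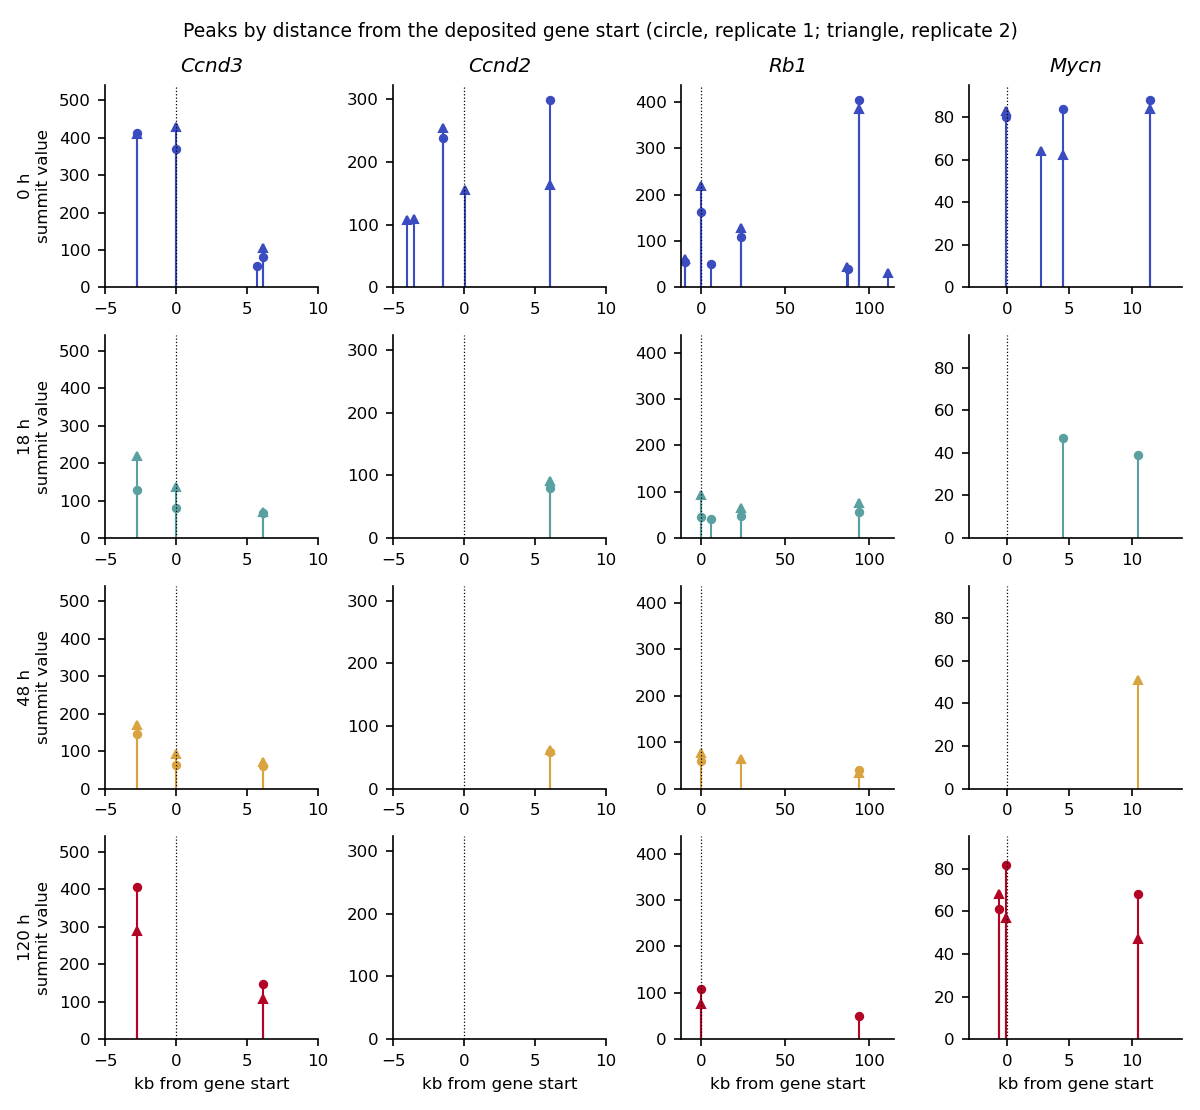
Summit value (y axis, tag coverage, scaled per gene) of every peak region assigned to Ccnd3, Ccnd2, Rb1 and Mycn by distance from the deposited gene start (x axis, kb, cut at the range shown) at 0, 18, 48 and 120 h (rows), with circles for replicate 1 and triangles for replicate 2. The deposited Ccnd3 start (370 and 427 in the 0 h pair) and the Ccnd2 regions in this range have no peak at 120 h, the Rb1 intron region falls from 404 and 385, and Mycn has a peak at -596 bp in the 120 h libraries alone. A region at another annotated Ccnd3 start, described above, has a peak in all 8 libraries.

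Besides Ccnd2 and Ccnd3, a further 14 of the 16 genes without a start region were Ccnd1, Ccna1, Ccnb3, Cdkn1a, Cdkn1b, Cdkn2c, Cdkn2d, E2f2, E2f4, Aurka, Aurkc, Cdc25b, Myc and Mycn. Ccnd3, Cdkn1a and Cdkn2c had a region in all 8 libraries within 1000 bp of another start annotated in GENCODE vM21. Several of the 16 had a peak at the deposited start that only some libraries caught. That of Ccnd1 was missing from the first replicate of 18 and 48 h (157 and 177 before RA, 103 and 90 in the second libraries, 191 and 143 at 120 h). Cdkn1b lacked one in 18 h replicate 1 and 48 h replicate 2 (155 and 207, then 83, 59, and 55 and 48). E2f4 lacked one in 18 h replicate 1 only (109 and 156, then 75, 79 and 83, and 152 and 114). At the start of Ccnd2 the single peak was in 0 h replicate 2 (156). E2f2 had 51 and 47 at 0 h, none at 18 or 48 h, and 73 and 63 at 120 h, and Mycn in the same way 80 and 83 and then 82 and 57. Cdc25b held 81 and 113 at 0 h, 48 and 41 in the second libraries of 18 and 48 h, and 55 and 55 at 120 h. Cdkn2c had 140 and 121 before RA, 52 in 18 h replicate 2, 66 and 47 after 48 h, and 104 and 75 at 120 h. Its region at the other start, -1508 bp from the deposited one, had 333 and 376 before RA and 199 and 123 at 120 h. Ccna1 had 148 and 189, 86 and 78, 67 in 48 h replicate 2, and 73 and 38. Aurkc, whose only region is its start, had 158 and 192, 60 and 70, 31 and 60, and none at 120 h. Myc, a driver of cell growth, had 5 regions of 61 to 109 at 0 h, of which later libraries held at most 2. Cdkn1a, which encodes p21, had no peak at its deposited start but a region 2678 bp inside the gene in all 8 libraries (194 and 337, 75 and 112, 88 and 119, 172 and 103). Ccnb3 had 1 peak at -9325 bp (102 and 48), with a start peak of 37 in 0 h replicate 2 alone, and Cdkn2d 1 peak at -6103 bp (65 and 36), at 0 h.

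The E2F words shown above were found in a larger share of member starts than of all starts, which is given without a test. They lie in the 300 bases around the summit of 15 of 31 member start regions (48.4%), against 20.8% of all 8971 start regions. The CHR words lie in 35.5% against 9.15%, CCAAT in 61.3% against 40.6% and GGGCGG in 90.3% against 73.6%, on either strand. CCAAT can overlap TTGGCGC, and GGGCGG can overlap TTCCCGC. Of the 15 with an E2F word, 11 were higher at 120 h against 0 h (median 1.01), those of Cdc6, Rbl1, Cdkn2a, E2f1, Cdk2, Mcm2, Cdc25a, E2f7, Ccne1, Cdt1 and Ccnb1, and 3 of the 16 without one (median 0.38), Bub1, Cdk4 and E2f3. As deposited none of either group was higher and the medians were 0.12 and -0.51. Over all start regions 37.5% with an E2F word and 27.6% without were higher, with medians of 0.43 and 0.29. CHR words went the other way, with 3 of 11 higher with one and 11 of 20 without (medians 0.41 and 0.67), where all start regions gave 30.9% and 29.5%.

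The difference by E2F word was seen on other scales, though no test of it was made and the members with a word have more GC in these windows (median 70.3% against 62.3%). Counts of higher regions with and without a word were 10 of 15 and 2 of 16 with the GC trend removed, against 24.3% and 17.3% of all start regions. They were 8 and 0 when centred on start regions (15.4% and 9.58%), 7 and 1 after quantile normalization (10.8% and 7.53%), and 9 and 0 without 120 h replicate 2 (11.4% and 6.74%). In promoter windows of 250 bases before to 50 after the RefSeq start, searched first and held for 36 of the members, they were 9 of 11 and 5 of 14, against 40.4% and 29.8% of all genes with such a window and a start region. In the promoter windows E2f3 had a word, while E2f1, Mcm2 and Ccne1 had none, so the label of these genes depends on the window. Exceptions with a word around the summit were Ccne2 (0.29), Cdk1 (0.26), E2f8 (0.19) and Rb1 (-0.17).

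**Figure D5:**
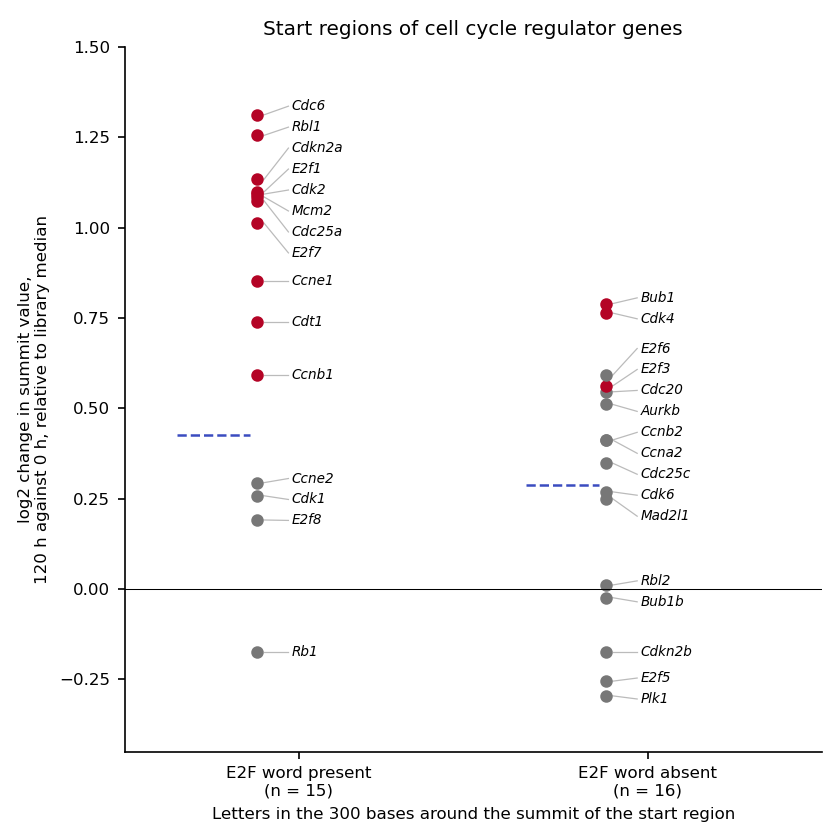
Change in summit value at 120 h against 0 h relative to the library median (y axis, log2) of the 31 start regions of cell cycle regulator genes, split by whether the 300 bases around the summit hold an E2F word (x axis). Points are genes, red where higher past the threshold and grey otherwise, and the dashed lines are the medians of all start regions with (0.43) and without (0.29) a word. With a word 11 of 15 are red and without one 3 of 16, and as deposited none would be. In promoter windows E2f3 has a word and E2f1, Mcm2 and Ccne1 have none.

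Other genes of the cell cycle, 69 from a list of licensing and replication, mitosis, E2F and CDK partner genes, gave 104 regions in all 8 libraries. Of these 32 were higher and 3 lower at 120 h against 0 h relative to the median, beside 23.0% and 15.8% of all regions. At gene starts 27 of 66 were higher and none lower, beside the 29.6% and 8.42% of all start regions. Smallest in adjusted p were the start of Orc1, an origin recognition subunit (431 and 576 before RA, 640 and 442 at 120 h, 0.98 ± 0.20, adjusted p = 0.00269), the start of Mybl2, a mitotic activator (0.91 ± 0.19, adjusted p = 0.00392) and a region at -9892 bp from the start of Pcna, the replication clamp (0.89 ± 0.20, adjusted p = 0.0051). The region near Pcna is assigned to Cds2 too, that of Orc1 to Prpf38a and that of Mybl2 to Ift52. The 3 lower ones lay in or past Tfdp2, an E2F partner (-0.78 ± 0.19, adjusted p = 0.00777), and Chek2, a checkpoint kinase (-0.89 ± 0.24 and -0.69 ± 0.23, adjusted p = 0.0123 and 0.0326). As deposited the first 3 stood at 0.09, 0.02 and 0.0036, and the lower ones were below 0.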

How the data were processed

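The authors aligned paired ATAC-seq reads to mm10 (GRCm38) with BWA 0.7.12, removed duplicates, extended tags and called peaks per library with MACS 2.1.0 without a control. Peaks on the ENCODE blacklist were dropped. The deposited values are signal, the tag coverage of a peak (at the summit, and averaged over its length) after tags were equalised between libraries. They hold no read counts per region, so the study's count-based comparison was not run. Depth behind a single value is therefore not known, and precision rests on 2 libraries per timepoint.

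Peaks overlapping by 1 bp were merged into regions. A library's highest summit value per region, as log2, was centred on the library's median and fitted with limma 3.58.1 in R 4.3.3 (4 groups, all 8 libraries, no block) over the 15536 regions with a peak in all of them, and p-values were adjusted by Benjamini-Hochberg, 0.05 being the threshold. Merging, fitting and word searches were tested on simulated data. Values by library are given for the 20 called regions of smallest adjusted p, the 10 highest regions of 0 h alone (ranked by the lower library), those with a peak in both 120 h libraries and none at 0 h, and genes without a start region. Other values were chosen after being seen.

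Genes were located with GENCODE vM21. The members, lists, words and tests were chosen with earlier results of these data known. The comparison by E2F word and its alternatives were added after seeing the data, and its summit windows were set after the promoter windows had been searched. Track lists were not used. The labels and methods differ in strain background and cells per library.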

Additional observations from a re-analysis of the deposited data

How the results depend on the processing

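Counts of member regions are given here as higher and lower. The share of all regions moved with the scale too, so a count without that share beside it is no result about the members. As deposited they were 0 and 59 (18 h against 0 h), 0 and 57 (48 h against 0 h), 0 and 15 (120 h against 0 h) and 28 and 0 (120 h against 48 h). All regions gave 0.296% and 92.3%, 0.328% and 93.3%, 0.882% and 44.8%, and 23.7% and 0.180% in this order. Quantile normalization gave 12 higher at 120 h against 0 h, and 0 and 0 at 120 h against 48 h. Centring on start regions gave 0 higher at 48 h, 12 and 4 at 120 h against 0 h, and 3 higher against 48 h. Removing the GC trend gave 1 higher at 18 h and 5 lower at 120 h against 0 h. The mean signal of the peak gave 1 lower at 18 h and 2 at 48 h. The intensity trend gave 1 lower at 18 h and 19 higher at 120 h against 48 h, and only the libraries compared 1 higher at 18 h. With missing heights set to the lowest value, counts were 5 and 3 (18 h) and 5 and 2 (48 h). They were 19 lower at 120 h against 0 h (15.4% of all regions) and 1 and 6 against 48 h. Peaks of at least 50 gave 1 lower at 120 h against 0 h and 5 higher against 48 h, and regions inside the gene or within 1000 bp 0 lower, and 5 and 0. The mean number of peaks per gene at 0 h and later was 2.99 and 1.84 for peaks of at least 50, 1.64 and 1.18 inside the gene or within 1000 bp, and 1.96 at 0 h with equal numbers of peaks, with 1, 0 and 0 genes counted at 0 h only.

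Below 0 as deposited were the rises at 48 h of Ccnd3 (-0.51), Rbl1 (-0.31) and Ccnd2 (-0.39), and those at 120 h against 0 h of Cdk4 (-0.13), Aurkb (-0.22), E2f3 (-0.33), Ccnb1 (-0.30), the upstream Ccnd3 region (-0.26), Bub1 (-0.10), Cdc25b (-0.038), Ccne1 (-0.039), Rbl2 (-0.28) and Cdt1 (-0.15), and by quantile normalization E2f3 (-0.028). The deposited scale keeps the difference in median height between libraries. For the other changes the cause was not tested. At 120 h against 0 h, 9 regions stayed higher past the threshold under every alternative other than the deposited scale, where that of Rbl1 had no value in windows of 100 bp around summits.

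Leaving out each library in turn gave 0 to 1 higher and 0 lower (18 h), 0 to 3 and 0 (48 h), 12 to 20 and 1 to 2 (120 h against 0 h), and 0 to 9 and 0 to 3 (120 h against 48 h), with 40 to 41 genes at all timepoints, 2 at 0 h only, and means of 3.09 to 3.32 and 2.04 to 2.15 peaks. With the replicate block counts were 0 and 0, 3 and 0, 21 and 2, and 10 and 2, and no named call changed. Deviations of same-numbered libraries correlated at -0.22 to 0.25 between timepoints, so the numbers were not taken to pair the libraries.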
